A study of Mus musculus with 16 samples.

Results

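The effect of adding 9-cis retinoic acid (9-cisRA) to mitotane was read from the 8 arrays of a 16-array series that carry the labels combined (4 arrays) and mitotane (4 arrays). These arrays were chosen by their treatment label alone, and the corn oil and 9-cisRA arrays did not enter the fit. H295R, a human adrenocortical carcinoma cell line that makes steroid hormones, was grown as a tumour in SCID mice, whose T and B cells are not functional. The mitotane group received mitotane by mouth and the combined group received mitotane and 9-cisRA by mouth, both for 28 days, and the other 2 groups of the series received corn oil or 9-cisRA. Each group therefore differs from its partner by 9-cisRA, and both carry mitotane. Total RNA of the tumours was labelled with 1 dye and hybridised to an array designed for human transcripts, although GEO lists the mouse as the organism. The labels do not say that each array is a separate mouse, so p-values here reflect how far these arrays differ from one another, and some of that spread may be technical. Tumour samples also hold cells of the mouse host. How far their RNA binds the human probes could not be examined, so markers of host cell types are no measure of host cells here.

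Mitotane is the drug used against adrenocortical carcinoma and is toxic to adrenal cortex cells, whose steroid synthesis it lowers. 9-cis retinoic acid is a vitamin A derivative that binds the retinoic acid receptors (RARs) and the retinoid X receptors (RXRs). RARs pair with RXRs on target genes such as CYP26A1, whose enzyme breaks down retinoic acid, while RXRs also pair with the liver X receptors (LXRs), the peroxisome proliferator-activated receptors (PPARs) and the vitamin D receptor.

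The files name each probe by a transcript identifier and pair none with a gene symbol. The symbols given here were assigned to human RefSeq identifiers from general knowledge, only where the pairing was held to be sure, and were checked against no table. The identifier stands beside each symbol at its first use. Values are log2 values of the deposited table relative to the probe's median over the 16 arrays of the series, so that 0 is the middle array of the series and a difference of 1 is a 2-fold difference. Levels of different genes cannot be compared on this scale. Values of the 4 arrays of a group are always given in the order of the slides, 1 to 4, each of which held 1 array of each group. All 8 arrays had column medians between -0.0034 and 0.051. Of the probes, between 72.3% and 73.8% were well above background on 6 of the arrays and 58.0% on combined replicate 4, which also had the lowest weight of the 8 arrays (0.34, against 0.62 to 4.17) when limma estimated array weights. Combined replicate 3 had no scanner file among those used, so its share is not given.

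The label of an adrenocortical tumour was checked against marker lists. Of 14 adrenocortical markers, all were tested and 13 were well above background on all 7 arrays with a scanner file. Of 10 chromaffin cell markers, 6 were above background on none of the 7 arrays and 3, TH, CHGA and CHGB, on all 7. Genes that define the adrenal cortex were thus measured in both groups.

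No transcript passed the test between combined and mitotane tumours. Over 20035 transcripts, 0 (0.0%) had an adjusted p under 0.05 in limma, and the lowest adjusted p was 0.380. At an unadjusted p under 0.05 there were 2034 transcripts (10.2%), against 1002 if p-values were spread evenly, of which 1092 (5.45%) had a higher mean in the combined tumours and 942 (4.7%) a lower one. The groups did not overlap for 1345 transcripts (6.71%), with the 4 combined arrays above the 4 mitotane arrays for 739 (3.69%) and below them for 606 (3.02%). The median log2 change over all transcripts was 0.0058. A mean difference of at least 2-fold was seen for 121 transcripts, 76 higher and 45 lower in combined tumours, and 73 of the 121 had an unadjusted p under 0.05. Every difference described next is therefore a difference of group means that missed the threshold, and each gene list is described by how many of its members had an unadjusted p under 0.05 beside those background shares. Leaving out 1 array moved 30 of the 35 list counts above 0 by over 1.5 times, most of them counts of 1 or 2, so they describe these arrays. Of the processing alternatives, normexp background correction with quantile normalisation of the scanner signals of 7 arrays moved the changes most: 65 of 126 changes named here were over 1.5 times smaller or turned sign, with a median ratio of 0.636, while its offset of 50, added to every signal, by construction draws dim signals together. In tumour tissue, fewer cells of a type and less RNA per cell cannot be told apart.

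The transcripts named first come from the 12 above and the 12 below with the smallest p among those whose groups did not overlap and whose symbol was held to be sure; 14 identifiers above and 12 below with a smaller p than the last one named were passed over. The choice used the p-values of this comparison, so the size of their differences is a description. All 24 had an adjusted p of 0.380. The 12 higher ones differed 1.52- to 1.82-fold and the 12 lower ones 1.36- to 2.21-fold.

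Among the 12 chosen transcripts higher in combined tumours, the largest difference was that of NANOG (NM_024865), a homeobox factor of pluripotent stem cells that has near-identical pseudogene copies. Its values were 0.57, 0.64, 0.45 and 0.85 in combined and -0.024, -0.39, -0.31 and -0.21 in mitotane tumours, a log2 change of 0.86 (SE 0.13, adjusted p = 0.380). PHEX (NM_000444), an endopeptidase known from phosphate handling, had values of 0.42, 0.38, 0.55 and 0.65 in combined tumours against -0.27, -0.53, -0.056 and -0.48, a log2 change of 0.84 (SE 0.13, adjusted p = 0.380). The 2 groups are separated by a gap in both genes, with combined replicate 4 the highest array. GALNT3 (NM_004482), an enzyme that starts O-linked sugar chains on proteins and also acts in phosphate handling, was at 0.80, 0.36, 0.71 and 0.51 against -0.12, -0.081, -0.25 and 0.012, a log2 change of 0.71 (SE 0.12, adjusted p = 0.380). SULF1 (NM_015170), which trims sulfate groups from heparan sulfate at the cell surface, stood at 0.13, 0.096, 0.28 and 0.43 against -0.33, -0.21, -0.67 and -0.67, and ZNF608 (NM_020747), a zinc finger protein, at 1.21, 0.54, 0.71 and 0.99 against 0.17, 0.029, -0.26 and 0.26. The log2 changes of this pair were 0.70 and 0.81. The others named were NPAS2 (NM_002518), a clock factor described with the clock genes, NOXA1 (NM_006647), an activator subunit of NADPH oxidase, RASIP1 (NM_017805), a Ras-interacting protein of endothelial cells, PCSK4 (NM_017573), a proprotein convertase, TRIM46 (NM_025058), a tripartite motif protein of neurons, and HOXD3 (NM_006898), a homeobox gene. Their log2 changes were between 0.60 and 0.78. After normexp and quantile normalisation the changes were 0.28 for PHEX, 0.20 for GALNT3, 0.20 for ZNF608, 0.21 for NPAS2 and 0.25 for TRIM46. The smallest change under the processing alternatives was 0.57 for NANOG, 0.59 for RASIP1 and 0.56 for NOXA1.

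Among the transcripts lower in combined tumours, HSPA8 (NM_153201), the constitutive cytosolic heat shock chaperone, had the largest difference of the 12. It stood at -0.72, -0.63, -0.83 and -1.02 in combined and 0.17, 0.78, -0.12 and 0.57 in mitotane tumours, a log2 change of -1.15 (SE 0.20, adjusted p = 0.380), or 2.21-fold. CHMP4B (NM_176812), a filament subunit of the membrane-cutting ESCRT machinery, had the smallest p of the 24, with values of -0.29, -0.30, -0.27 and -0.10 against 0.44, 0.46, 0.36 and 0.60 and a log2 change of -0.70 (SE 0.099, adjusted p = 0.380). The arrays of each group lay close together for CHMP4B, with a wide gap between the groups. CTBP2 (NM_001329), a transcriptional corepressor, was at -0.23, -0.38, -0.098 and -0.44 against 0.24, 0.41, 0.45 and 0.30, and RRBP1 (NM_001042576), a ribosome-binding protein of the endoplasmic reticulum, at -0.20, -0.26, 0.053 and -0.04 against 0.37, 0.59, 0.68 and 0.50. PSME1 (NM_006263), a subunit of the PA28 activator of the proteasome, was at -0.47, -0.27, -0.32 and -0.43 against 0.28, 0.23, 0.038 and 0.30, and SH3BP5 (NM_004844), an exchange factor for RAB11, at -0.40, -0.21, -0.27 and -0.43 against 0.27, 0.41, 0.33 and 0.076. In these 4 genes, too, every combined array lay below every mitotane array, with log2 changes between -0.65 and -0.58. CITED1 (NM_004143), a transcriptional coactivator, had a log2 change of -0.91 (SE 0.15, adjusted p = 0.380), and WNT7A (NM_004625), a secreted WNT ligand, a log2 change of -1.05 (SE 0.23, adjusted p = 0.380). Both were well above background on all 4 mitotane arrays but on 1 of the 3 combined arrays with a scanner file, so they entered the test through the mitotane group, and their low values lie near the background. The size of both differences is therefore uncertain, and after normexp and quantile normalisation it was -0.066 for CITED1 and -0.066 for WNT7A. The remaining 4 were CRY1 (NM_004075), a clock repressor, HSP90AA1 (NM_001017963), the inducible cytosolic HSP90, STBD1 (NM_003943), a glycogen-binding protein, and OGFOD1 (NM_018233), a hydroxylase of a ribosomal protein.

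**Figure D1:**
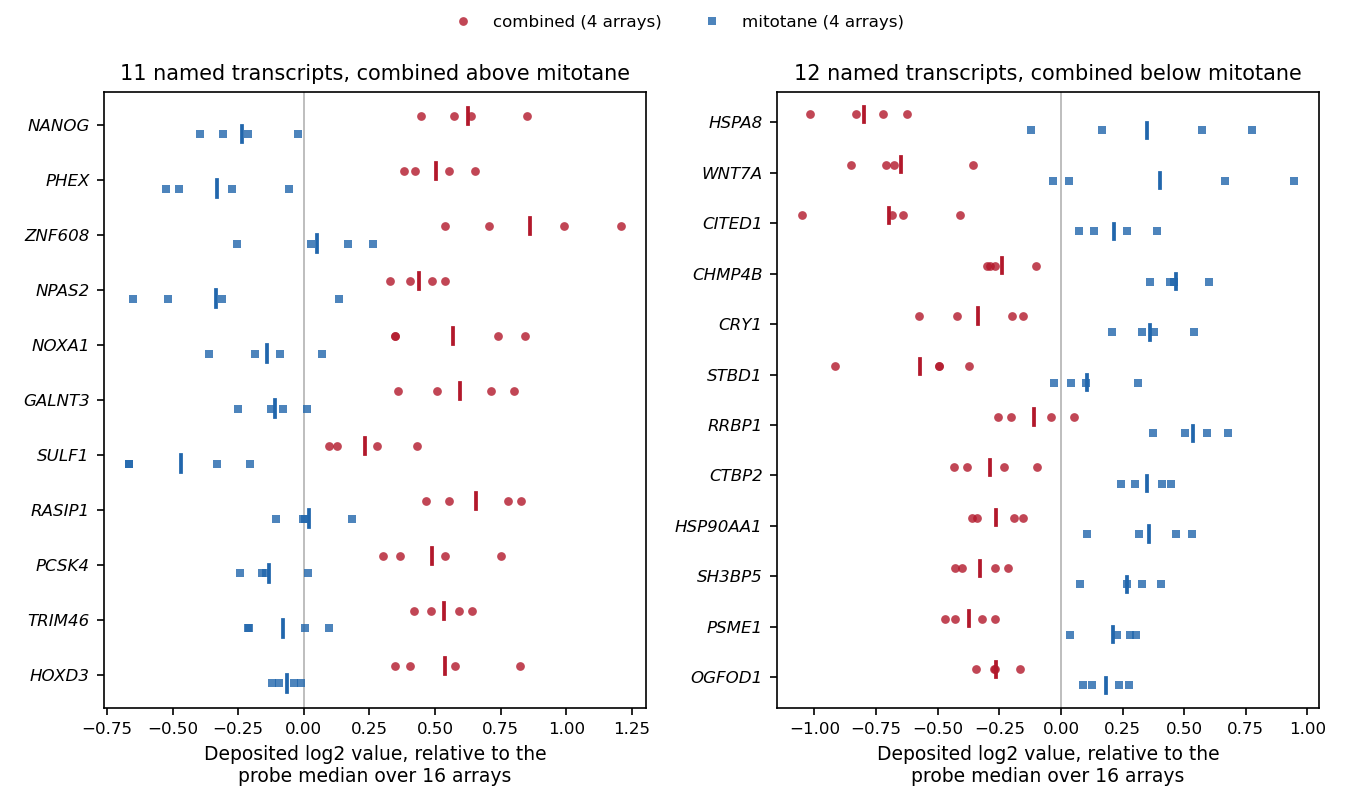
Deposited log2 value (x axis, relative to the probe median over 16 arrays) of 23 of the 24 chosen transcripts in each of the 4 combined arrays (red circles) and 4 mitotane arrays (blue squares); short vertical lines are group means. The groups were required not to overlap, so the gap is a property of the choice; the widest separation of means is that of HSPA8, with a log2 change of -1.15.

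The 9-cisRA and corn oil arrays, which share no array with the comparison above, give the same 24 chosen transcripts without mitotane. The difference of 9-cisRA and corn oil means had the same sign as the difference of combined and mitotane means for 15 of 24, and for 18 of 24 when control replicate 4, whose median over all transcripts tested was -0.37 against -0.023 to -0.013 for the other 3 corn oil arrays, was left out. Over all transcripts tested the same-sign shares were 48.5% and 56.8%. Without that control array the median absolute difference of the 24 was 0.14, against 0.70 between combined and mitotane tumours. CRY1 differed by -0.61 and HSP90AA1 by -0.41 in 9-cisRA tumours, NANOG by -0.072, PHEX by 0.11 and HSPA8 by -0.14. No test was run on these values.

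No direct target of retinoic acid passed the test. Of 14 tested transcripts of retinoid-induced genes, 1 was higher and 1 lower at an unadjusted p under 0.05, with a median change of 0.018. CYP26A1 (NM_057157), the retinoic acid hydroxylase that is the usual readout of RAR activity, was the higher one. It had values of 0.52, 0.60, 0.19 and 0.52 in combined and -0.085, 0.048, 0.15 and -0.44 in mitotane tumours, a log2 change of 0.54 (SE 0.15, adjusted p = 0.380). All 4 combined arrays were above all 4 mitotane arrays, though combined replicate 3 and mitotane replicate 3 lay close together. After normexp and quantile normalisation of the scanner signals the change was 0.18. In tumours given 9-cisRA without mitotane the CYP26A1 mean differed from that of corn oil by 0.062 (control replicate 4 left out). RARB (NM_000965), the receptor gene that retinoic acid itself induces in many cells, was the lower one, at -0.17, -0.24, -0.059 and -0.67 against 0.25, -0.20, 0.12 and 0.48, and the groups overlapped, with a log2 change of -0.45 (SE 0.18, adjusted p = 0.463); it was well above background on 2 of the 3 combined arrays with a scanner file. The smallest RARB change in size under the processing alternatives was -0.025. HIC1 (NM_006497), a transcriptional repressor, had the highest change of the list, 0.86 (SE 0.46), with mitotane replicate 2 above 3 of the 4 combined arrays, and 1.34 without that array.

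The groups overlapped in the other retinoid genes named here. The change was -0.076 (SE 0.22) for CYP26B1 (NM_019885), another retinoic acid hydroxylase, and 0.11 (SE 0.16) for CRABP2 (NM_001878), which carries retinoic acid to the nucleus. It was 0.18 (SE 0.23) for RARRES3 (NM_004585), a phospholipase now named PLAAT4. Both tested transcripts of the transglutaminase TGM2 had lower means, -0.28 (NM_004613) and -0.30 (NM_198951), with overlapping groups. DHRS3 (NM_004753), which reduces retinal to retinol, was above background on 3 of 7 arrays and was not tested. Vitamin A handling enzymes gave 0 of 13 at an unadjusted p under 0.05, with a median change of -0.047.

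Of the receptors and their partners, 16 transcripts were tested and 3 had an unadjusted p under 0.05. RARG (NM_000966), the retinoic acid receptor gamma, was at 0.073, 0.23, 0.39 and 0.10 in combined tumours against -0.29, -0.024, 0.024 and -0.013, with no overlap and a log2 change of 0.27 (SE 0.12, adjusted p = 0.480). The change of RXRA (NM_002957) was -0.077 (SE 0.11) and that of RXRB (NM_021976) 0.073 (SE 0.18), 2 of the receptors that 9-cisRA binds. The coactivator NCOA2 (NM_006540) was at 0.14, -0.031, -0.16 and -0.74 against 0.45, 0.36, 0.23 and 0.61 and the corepressor NCOR1 (NM_006311) at -0.026, -0.014, -0.16 and -0.46 against 0.13, 0.089, 0.11 and 0.19. Both coregulators were lower on all 4 combined arrays than on any mitotane array, with changes of -0.61 and -0.30 and adjusted p-values of 0.391 and 0.464. NCOA2 was above background on 6 of the 7 arrays with a scanner file, and its change was -0.080 after normexp and quantile normalisation. Without combined replicate 4 the change of NCOR1 was -0.20. RARA was not analysed here.

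The 3-prime HOX genes, classical retinoic acid responders in the embryo, gave 1 of 9 at an unadjusted p under 0.05. HOXD3 stood at 0.35, 0.57, 0.41 and 0.82 in combined tumours and at -0.01, -0.12, -0.094 and -0.039 in mitotane tumours, a log2 change of 0.60 (SE 0.12, adjusted p = 0.380), with the 4 mitotane arrays close together. The neighbours in the list were spread around 0, with 0.15 for HOXA2 (NM_006735), -0.23 for HOXB2 (NM_002145) and -0.22 for HOXB3 (NM_002146). HOXD3 was one of the 24 chosen by p-value. In 9-cisRA tumours without mitotane its mean differed from that of corn oil by -0.26, the opposite sign.

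Genes that RXR regulates with other partners were also mixed. LXR target genes had a median change of 0.19 over 13 transcripts, 10 of them positive, and 1 higher and 1 lower at an unadjusted p under 0.05. LPCAT3 (NM_005768), which remodels membrane phospholipids, was the higher one, at 0.035, 0.16, 0.28 and 0.35 against -0.29, -0.091, -0.0093 and -0.22 with no overlap. LPL (NM_000237), the lipase that frees fatty acids from lipoproteins, was the lower one, at 0.37, -0.49, -0.60 and -1.50 against 0.62, -0.27, 0.62 and 0.44, with combined replicate 4 the lowest and the groups overlapping. Its change was -0.91, and -0.59 without that array. LPL was above background on 6 of the 7 arrays with a scanner file, and its smallest change in size under the processing alternatives was -0.089. The best known LXR targets had positive changes that missed the unadjusted threshold, 0.25 (SE 0.13) for the cholesterol exporter ABCA1 (NM_005502) and 0.23 (SE 0.17) for the lipid synthesis regulator SREBF1 (NM_001005291). PLTP (NM_006227), the phospholipid transfer protein, had a change of 0.66 and mitotane replicate 2 again stood above the other mitotane arrays. PPAR targets gave 1 of 10, HADHA (NM_000182), a mitochondrial fatty acid oxidation enzyme with a change of -0.41.

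**Figure D2:**
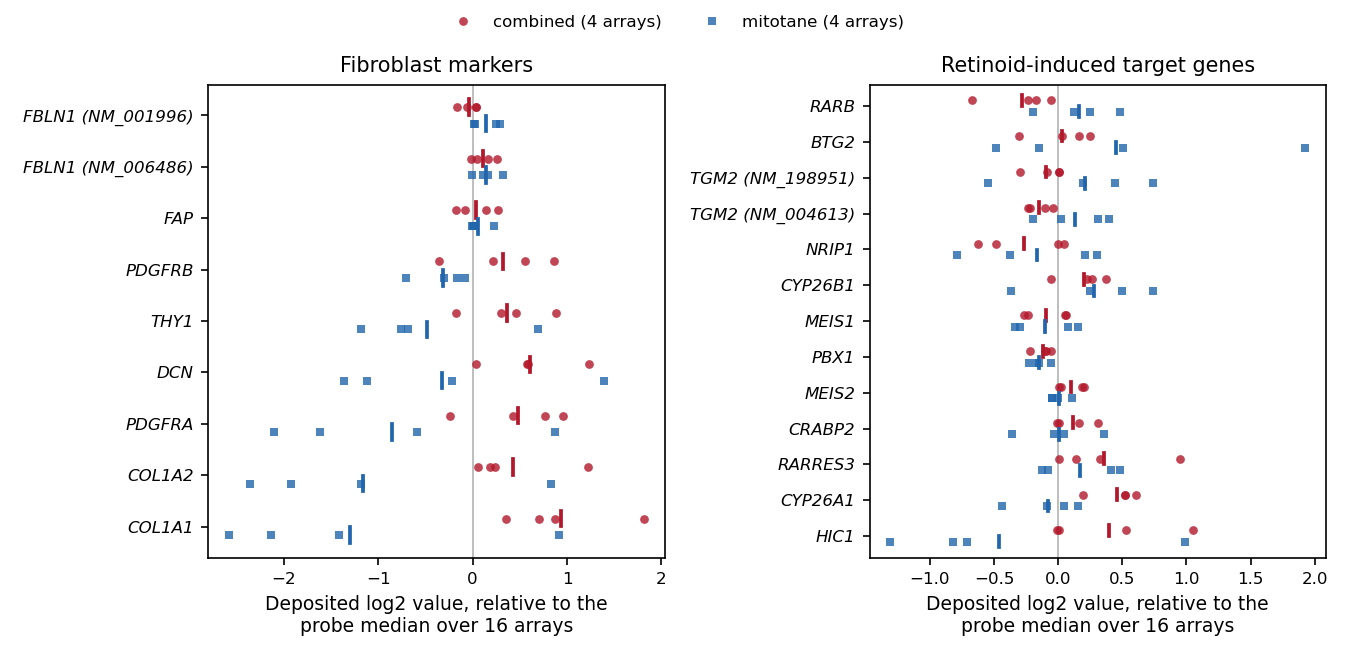
Deposited log2 value (x axis, relative to the probe median over 16 arrays) of the 9 tested transcripts of fibroblast markers (left) and 13 of the 14 of retinoid-induced genes (right) in each combined (red circles) and mitotane array (blue squares), with group means as short lines. CYP26A1 is the 1 retinoid gene whose groups do not overlap, and 1 mitotane array, replicate 2, lies far above the other mitotane arrays in COL1A1, COL1A2, PDGFRA, DCN and THY1.

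Most clock genes, which drive and read out the daily rhythm of cells, had lower means in combined tumours. Of 16 tested, 7 were lower and 1 higher at an unadjusted p under 0.05, beside 4.7% and 5.45% of all transcripts, and 14 of 16 changes were negative. The median change was -0.35, and the median of the list lay between -0.22 and -0.063 on the combined arrays and between 0.13 and 0.32 on the mitotane arrays. CRY1, which represses the clock's activators, was at -0.42, -0.57, -0.16 and -0.20 against 0.21, 0.54, 0.33 and 0.38, a log2 change of -0.70 (SE 0.13, adjusted p = 0.380). PER3 (NM_016831), a period protein of the same repressor arm, was at -0.096, -0.10, 0.12 and -0.76 against 0.64, 0.46, 0.45 and 0.47, a log2 change of -0.71 (SE 0.18, adjusted p = 0.380). The PER3 mitotane arrays are tightly grouped and the lowest array is combined replicate 4. It was above background on 6 of the 7 arrays with a scanner file, and its change was -0.089 after normexp and quantile normalisation. TEF (NM_003216), an output factor of the clock, was at -0.0011, -0.23, 0.0011 and -0.17 against 0.26, 0.51, 0.59 and 0.31, a log2 change of -0.52 (SE 0.11, adjusted p = 0.380). These 3 genes had no overlap between the groups. PER1 (NM_002616) had a change of -0.51, DBP (NM_001352), a further output factor, of -0.35, and RORB (NM_006914), an orphan nuclear receptor, of -0.28, all with overlapping groups.

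BHLHE40 (NM_003670), a repressor that also answers to serum and hypoxia, had the most negative change among the genes named, -1.62 (SE 0.58, adjusted p = 0.431). Its values were 0.0034, -0.42, -1.50 and -1.46 against 0.55, 0.34, 2.50 and -0.27, so that mitotane replicate 3 lay far above the rest, and without that array the change was -1.05. BHLHE40 was above background on 6 of the 7 arrays with a scanner file, and its smallest change in size under the processing alternatives was -0.35. PER2 (NM_022817) was at -0.51, -0.71, -0.42 and 1.70 in combined tumours and at 0.50, 0.58, 0.52 and 0.56 in mitotane tumours. Here 3 of the combined arrays lay below all mitotane arrays and combined replicate 4 above them, so the change was -0.53 with all arrays and -1.09 without that one. In the opposite direction, NPAS2, the partner of ARNTL in the activator arm, was at 0.40, 0.33, 0.49 and 0.54 against -0.31, -0.52, 0.13 and -0.65, a log2 change of 0.78 (SE 0.17, adjusted p = 0.380). The change was 0.37 for NR1D1 (NM_021724) (REV-ERB alpha), -0.46 for the output factor HLF (NM_002126) and -0.039 for CLOCK (NM_004898), none with an unadjusted p under 0.05. The labels give no time of day at which tumours were taken. Without combined replicate 2 the count of lower clock genes was 4, and over all left-out arrays it ran from 4 to 8. It was 5 with no filter on dim probes and 4 on scanner values scaled to the 75th percentile. Of the lower members, PER3 and BHLHE40 were not above background on all 7 arrays. No probe of these genes therefore entered the test through both groups, and their place in the count partly follows from the filter. In 9-cisRA tumours without mitotane (control replicate 4 left out) the differences were 0.32 for PER3, 0.24 for TEF, -0.54 for PER1 and 0.67 for DBP, and so of both signs.

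**Figure D3:**
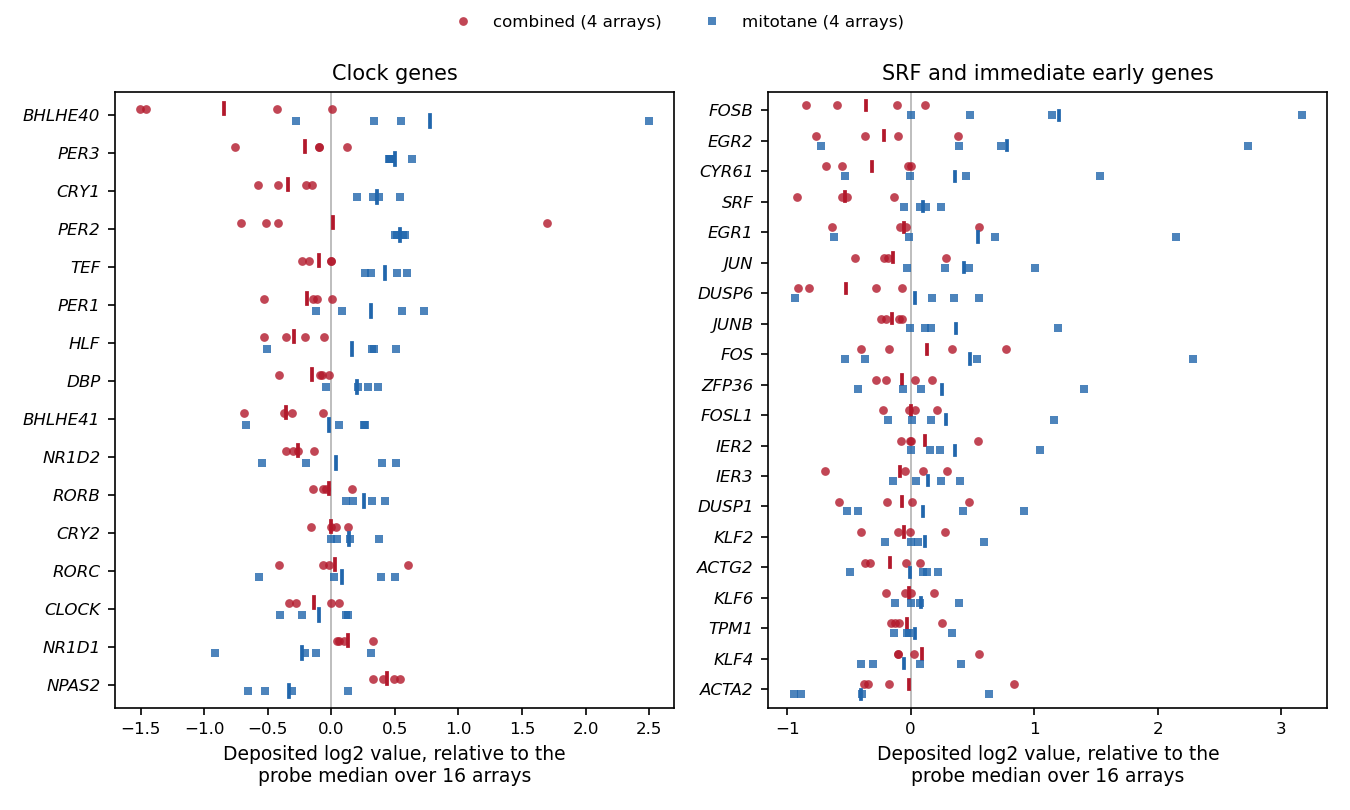
Deposited log2 value (x axis, relative to the probe median over 16 arrays) of the 16 tested clock genes (left) and the 20 tested SRF and immediate early genes (right) in each combined (red circles) and mitotane array (blue squares), with group means as short lines, ordered by the difference of means. The clock genes at the top are lower in most combined arrays, while in several early genes 1 mitotane array lies far above the rest, as in FOSB, where it lies at 3.17.

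Heat shock chaperones fold proteins, most of those listed in the cytosol, and many answer to heat shock factor 1. The list also holds the heat shock factors HSF1 (NM_005526) and HSF2 (NM_004506) and chaperones of the mitochondrial matrix. It was drawn up after HSPA8 and HSP90AA1 had been seen among the lowest transcripts, so its count is a description and supports nothing. Of 26 transcripts, 15 were lower and 0 higher at an unadjusted p under 0.05, beside 4.7% and 5.45% of all transcripts. The combined arrays lay below the mitotane arrays without overlap for 15, beside 3.02% of all transcripts, and the median change was -0.44. HSPH1 (NM_006644), the HSP110 exchange factor, was at -0.16, -0.43, -0.16 and -0.078 in combined tumours against 0.087, 0.59, 1.01 and 0.58, a log2 change of -0.77 (SE 0.18, adjusted p = 0.380). HSPA1B (NM_005346), an inducible HSP70, was at -0.36, -0.48, -0.092 and -0.024 against 0.097, 0.14, 1.59 and 0.67, and its near-identical copy HSPA1A (NM_005345), whose signal cannot be told apart with certainty, at -0.039, -0.067, -0.067 and -0.021 against 0.13, 0.59, 2.74 and 0.46. In both copies mitotane replicate 3 stood far above the other arrays; without it the change was -0.54 for HSPA1B and -0.44 for HSPA1A, against -0.86 and -1.03 with it. HSPA8, described above, was instead lowest in mitotane replicate 3 among the mitotane arrays, and its change without that array was -1.30.

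Of the 26 transcripts of the list, 3 had a positive change. DNAJA1 (NM_001539), an HSP40, was at -0.46, -0.33, -0.65 and -0.98 against 0.00055, 0.035, -0.33 and 0.51, HSPA4L (NM_014278), a further HSP110, at -0.32, -0.25, -0.51 and -0.14 against 0.28, -0.024, 0.072 and 0.40, and FKBP4 (NM_002014), a steroid receptor cochaperone, at -0.26, -0.32, 0.05 and -0.12 against 0.13, 0.40, 0.23 and 0.34. For BAG3 (NM_004281), an HSP70 exchange factor in protein disposal, the values were -0.17, -0.18, -0.12 and -0.61 against -0.0068, 0.23, 0.32 and 0.19. None of these 4 had overlapping groups, and their changes lay between -0.66 and -0.44. HSP90AA1 had changes of -0.62 on NM_001017963 and -0.47 on NM_005348, its other transcript. DNAJB1 (NM_006145) had a change of -0.39 (SE 0.21), again with mitotane replicate 3 highest. Without that array the change was -0.16 for DNAJB1 and -0.27 for NM_005348 of HSP90AA1. On 1 probe per identifier it was -0.28 for NM_001017963 of HSP90AA1 and -0.14 for FKBP4. The changes of AHSA1 (NM_012111), STIP1 (NM_006819), CHORDC1 (NM_012124) and HSPB8 (NM_014365) were -0.64, -0.44, -0.36 and -0.66. Those of the chaperones of the mitochondrial matrix were -0.024 (SE 0.094) for HSPD1 (NM_002156), or HSP60, -0.11 (SE 0.13) for HSPE1 (NM_002157), or HSP10, and -0.016 (SE 0.094) for HSPA9 (NM_004134), or mortalin. The median over the list was between -0.23 and -0.10 on the combined arrays and between 0.025 and 0.20 on the mitotane arrays. The count of lower members of the list ran from 11 to 16 over the left-out arrays. It was 12 with no filter on dim probes, 13 on 1 probe per identifier and 11 on scanner values scaled to the 75th percentile.

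**Figure D4:**
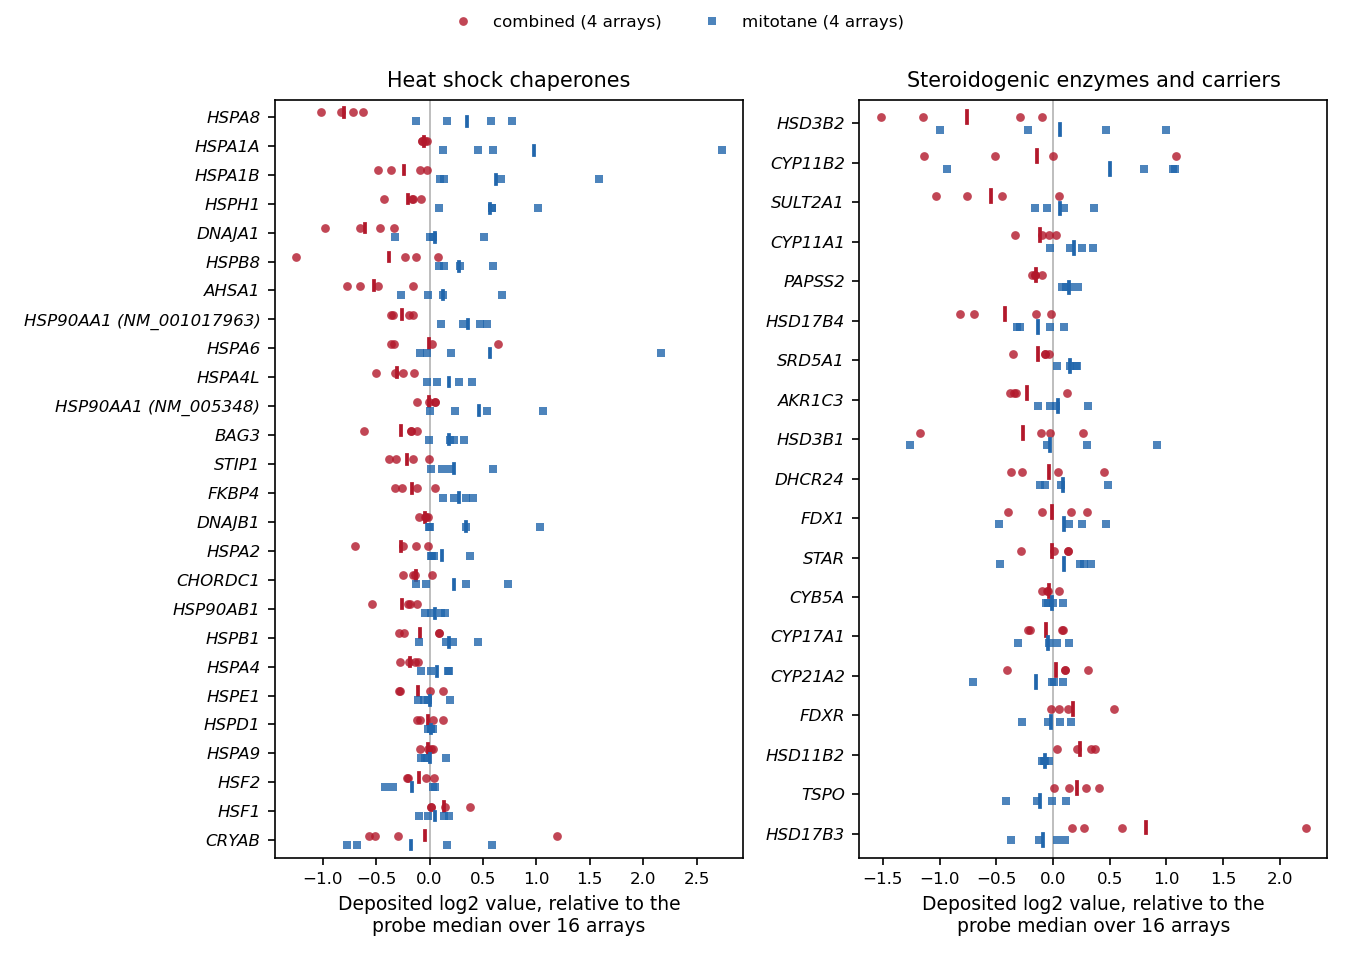
Deposited log2 value (x axis, relative to the probe median over 16 arrays) of the 26 transcripts of the heat shock chaperone list (left, drawn up after values were seen, with HSF1 and HSF2 among them) and the 19 tested steroidogenic genes (right) in each combined (red circles) and mitotane array (blue squares), with group means as short lines. Most chaperones at the top have all combined arrays below the mitotane arrays, whereas the steroidogenic genes overlap apart from a few, such as PAPSS2.

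Immediate early genes switch on within minutes of a stimulus. Their list also holds their regulator SRF and the contractile genes ACTA2 (NM_001613), ACTG2 (NM_001615) and TPM1 (NM_000366). It gave 3 lower of 20 tested at an unadjusted p under 0.05, with a median change of -0.30. SRF (NM_003131), the serum response factor itself, was at -0.52, -0.56, -0.13 and -0.92 in combined tumours against 0.078, 0.13, 0.25 and -0.058 with no overlap, a log2 change of -0.63 (SE 0.16, adjusted p = 0.380). SRF was above background on 6 of the 7 arrays with a scanner file, and its change was -0.098 after normexp and quantile normalisation. FOSB (NM_006732), an AP-1 subunit, was at -0.11, 0.12, -0.85 and -0.59 against 1.15, 0.48, 3.17 and 0.0031 and JUN (NM_002228), its partner, at -0.18, -0.45, -0.22 and 0.28 against 0.28, 0.47, 1.01 and -0.028. In both, and in EGR2 (NM_000399) and EGR1 (NM_001964), mitotane replicate 3 was the highest of the 8 arrays. Without that array the change was -0.90 for FOSB, -0.38 for JUN, -0.35 for EGR2 and -0.067 for EGR1, against -1.56, -0.57, -0.996 and -0.60 with it, and the list's median was -0.076. The part of this array in the difference of the list beyond these values was not tested. Without combined replicate 3 the count of lower members was 1.

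Of the p53 and cell cycle arrest genes, 1 of 16 was lower and 0 higher at an unadjusted p under 0.05, near the 4.7% of all transcripts, with a median change of -0.25. CDKN1A (NM_078467), the p21 inhibitor of cyclin-dependent kinases, was at -0.13, -0.17, 0.12 and -0.53 in combined tumours against 0.27, 0.54, 0.95 and 0.51, with no overlap and a log2 change of -0.75 (SE 0.18, adjusted p = 0.380). GADD45A (NM_001924), a stress-induced growth arrest gene, was at -0.19, -0.41, 0.076 and -0.0031 against 0.38, 0.77, 2.29 and -0.42, and without mitotane replicate 3 its change was -0.37 in place of -0.89. Apoptosis regulators gave 3 lower and 0 higher of 25, with a median of -0.0035. MCL1 (NM_021960), a protein that blocks apoptosis, was at -0.18, -0.45, -0.39 and -0.87 against 0.60, -0.17, 0.19 and 0.24, and PMAIP1 (NM_021127) (NOXA), which binds MCL1 and promotes apoptosis, at 0.18, -0.17, -0.33 and -0.34 against 0.20, 0.37, 1.09 and 0.57, neither with overlap. The third was the pore former BAK1 (NM_001188), with a change of -0.35 and overlapping groups. So the 3 lower genes include 1 that blocks and 2 that promote cell death. CDKN1A and PMAIP1 were well above background on 2 of the 3 combined arrays with a scanner file. Their smallest changes in size under the processing alternatives were -0.20 and -0.092. In the integrated stress response 1 of 25 was lower, again near the background, DDIT3 (NM_004083) (CHOP), with a change of -0.47.

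Steroidogenic enzymes and carriers gave 4 lower and 2 higher of 19 tested at an unadjusted p under 0.05, with a median change of -0.13. At the first step, STAR (NM_000349), which moves cholesterol into mitochondria, had a change of -0.098 (SE 0.19), and TSPO (NM_000714), an outer membrane protein, was at 0.0075, 0.29, 0.14 and 0.41 in combined tumours against -0.0075, -0.14, 0.11 and -0.41. CYP11A1 (NM_000781), the side-chain cleavage enzyme that makes pregnenolone, was at 0.026, -0.037, -0.10 and -0.34 against 0.25, 0.35, 0.15 and -0.026, a log2 change of -0.29 (SE 0.12, adjusted p = 0.474). The groups of both overlapped, TSPO with a higher and CYP11A1 with a lower mean in combined tumours. HSD3B2 (NM_000198), which turns pregnenolone into progesterone, had values of -0.097, -1.52, -0.29 and -1.15 against 0.47, 0.99, -0.22 and -0.998, a change of -0.82 with an SE of 0.45 and arrays that ranged widely in both groups. Without mitotane replicate 2 it was -0.51. The changes of the next enzymes were -0.022 (SE 0.13) for CYP17A1 (NM_000102), the 17-hydroxylase, 0.18 (SE 0.21) for CYP21A2 (NM_000500), the 21-hydroxylase, and -0.64 (SE 0.55) for CYP11B2 (NM_000498), aldosterone synthase. The CYP11B2 change ran from -1.12 without mitotane replicate 4 to -0.31 without combined replicate 4, and was 0.055 with array weights. CYP11B1 (NM_000497), the cortisol-making hydroxylase, was above background on none of the 7 arrays with a scanner file and was not tested.

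Of the 4 lower steroidogenic genes, 2 act in the sulfation of adrenal androgens. SULT2A1 (NM_003167), which sulfates DHEA, was at 0.053, -0.45, -0.76 and -1.03 against 0.36, 0.098, -0.16 and -0.053 with overlap at combined replicate 1, a log2 change of -0.61 (SE 0.23, adjusted p = 0.443) that was -0.28 with array weights. PAPSS2 (NM_001015880), which makes the sulfate donor, was at -0.099, -0.18, -0.16 and -0.16 against 0.15, 0.074, 0.22 and 0.12, a log2 change of -0.29 (SE 0.087, adjusted p = 0.385). The 4 PAPSS2 arrays of each group lay close together and the groups did not overlap. The fourth lower gene was SRD5A1 (NM_001047), a 5-alpha reductase, with a change of -0.28. HSD11B2 (NM_000196), which inactivates cortisol, was higher, at 0.37, 0.21, 0.036 and 0.33 against -0.071, -0.076, -0.036 and -0.094, a log2 change of 0.31 (SE 0.10, adjusted p = 0.405). HSD17B3 (NM_000197), which makes testosterone, did not overlap either, at 0.61, 0.17, 0.27 and 2.23 against -0.13, 0.038, 0.10 and -0.37. Combined replicate 4 set the size of that difference, which was 0.91 with it and 0.44 without it, and 0.28 on 1 probe per identifier. Without mitotane replicate 1 the steroidogenic list had 1 lower and 1 higher member.

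A pair of genes outside the lists was picked after values were seen. CYP19A1 (NM_031226), aromatase, which makes oestrogens, was at -0.29, -0.56, -0.89 and -0.71 against 0.68, -0.023, 0.049 and 0.072, a log2 change of -0.81 (SE 0.19, adjusted p = 0.380), and KCNJ5 (NM_000890), the potassium channel that sets the membrane voltage of aldosterone-making cells, at -0.14, -0.38, -0.11 and -0.32 against 0.64, 0.60, 0.026 and 0.28, a log2 change of -0.63 (SE 0.15, adjusted p = 0.380). Neither gene's groups overlapped. The smallest change in size under the processing alternatives was -0.29 for CYP19A1 and -0.47 for KCNJ5. Mitotane replicate 1 was the highest array for CYP19A1, and without it the change was -0.65.

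Adrenocortical identity factors gave 1 lower of 15. It was GATA4 (NM_002052), at 0.017, -0.29, -0.077 and -0.29 against 0.35, -0.025, 0.043 and 0.38 with overlap. The smallest GATA4 change in size under the processing alternatives was -0.051. NR5A1 (NM_004959) (SF-1), the main regulator of steroidogenic genes, had a change of -0.21 (SE 0.16). MC2R (NM_000529), the ACTH receptor, was at 0.18, -1.24, -0.10 and -1.52 against 0.65, 0.36, 0.39 and -0.75, lower in combined tumours on each slide but widely spread, with a log2 change of -0.84 (SE 0.43, adjusted p = 0.557), or -0.55 without combined replicate 4. It was above background on 6 of the 7 arrays with a scanner file, and its smallest change in size under the processing alternatives was -0.085. Its accessory protein MRAP had changes of 0.52 (NM_178817) and 0.081 (NM_206898). Cholesterol synthesis gave 2 lower of 21, STARD4 (NM_139164), a cholesterol carrier, at -0.15, -0.28, -0.20 and -0.23 against 0.29, 0.20, 0.40 and 0.071 with no overlap, and SC4MOL (NM_006745) (now MSMO1), a sterol oxidase, with a change of -0.63. SC4MOL was above background on 6 of the 7 arrays with a scanner file, and its smallest change in size under the processing alternatives was -0.047. Cholesterol storage and transport gave 0 of 13, and the change of SOAT1 (NM_003101), the cholesterol esterifying enzyme that mitotane inhibits, was -0.036 (SE 0.10).

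Metabolic and antioxidant lists had more lower than higher members at an unadjusted p under 0.05. The shares of all transcripts were 4.7% lower and 5.45% higher, and the list counts moved between alternatives. Hypoxia and glycolysis genes gave 5 lower and 0 higher of 22, with 19 of 22 changes negative and a median of -0.20. LDHA (NM_005566), lactate dehydrogenase A, was at -0.51, -0.45, -0.95 and -1.82 in combined tumours against -0.053, -0.19, -0.56 and 0.12, lowest on combined replicate 4, and its change without that array was -0.46 in place of -0.76. ENO1 (NM_001428), the glycolytic enolase, was at -0.42, -0.44, -0.093 and -0.29 against 0.28, 0.33, -0.044 and -0.036 with no overlap, a log2 change of -0.45 (SE 0.13, adjusted p = 0.385), and HK2 (NM_000189), hexokinase 2, had a change of -0.39 that was 0.033 when dim probes were also averaged. The count of the list was 1 on the scanner values of 7 arrays, and it ran from 2 (without mitotane replicate 1) to 5 over the left-out arrays. Genes of NRF2 and glutathione defence gave 5 lower and 0 higher of 20, and 3 or 4 lower without any 1 array. TXNRD1 (NM_003330), thioredoxin reductase, was at -0.054, -0.12, -0.074 and -0.43 against 0.32, 0.16, 0.37 and 0.086, SRXN1 (NM_080725), sulfiredoxin, at -0.17, -0.19, -0.23 and -0.046 against 0.069, 0.20, 0.14 and 0.11, and FTL (NM_000146), the ferritin light chain, at -0.28, -0.14, -0.27 and -0.40 against -0.013, 0.17, 0.29 and -0.043. These 3 had no overlap and changes between -0.40 and -0.29. HMOX1 (NM_002133), haem oxygenase, had a change of -0.39 with overlap. GSTA2 (NM_000846), a glutathione transferase of the xenobiotic list, was at -0.35, -0.23, -0.28 and -0.91 against 0.30, 0.06, -0.067 and 0.28, a log2 change of -0.59 (SE 0.17, adjusted p = 0.380). Respiratory chain subunits gave 4 lower of 31, among them ATP5B (NM_001686) (now ATP5F1B), the catalytic subunit of ATP synthase, with a change of -0.57, or -0.37 without combined replicate 4. That count was 0 without combined replicate 4, mitotane replicate 1 or mitotane replicate 2, 1 without combined replicate 1 or 3, and 8 without combined replicate 2. It was also 0 with no filter on dim probes and on scanner values scaled to the 75th percentile.

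Most proliferation genes had small differences. Mitosis genes gave 1 lower and 0 higher of 27 with a median of 0.0086, and DNA replication genes 3 lower and 0 higher of 32 with a median of -0.0047, or 1 lower without combined replicate 4 or mitotane replicate 1. MKI67 (NM_002417), the proliferation marker, had a change of -0.23 (SE 0.14), CCNB1 (NM_031966), cyclin B1, -0.058 (SE 0.13), and AURKB (NM_004217), the chromosome passenger kinase, -0.34 with an adjusted p of 0.445. POLA2 (NM_002689), a subunit of the primase complex, was at -0.39, -0.30, -0.14 and -0.30 against 0.17, 0.34, 0.011 and -0.045 with no overlap. IGF2 (NM_000612), the growth factor that adrenocortical carcinomas overexpress, had a change of 0.047 (SE 0.13), and its list gave 0 of 14. Beta-catenin targets gave 4 lower of 15, among them BMP4 (NM_001202), a secreted signal, at -0.37, -0.045, -0.09 and -0.21 against 0.025, 0.33, 0.18 and -0.027. The count of lower beta-catenin targets was 0 without mitotane replicate 2 or 3, and 1 without combined replicate 4, with no filter on dim probes, with the slide as a block or on scanner values scaled to the 75th percentile. Interferon response genes gave 2 higher and 1 lower of 26, with 0.45 for the antiviral GTPase MX1 (NM_002462) and -0.47 for the RNA-binding IFIT2 (NM_001547), which had opposite signs. The median of the interferon list was 0.39 on combined replicate 2 against -0.044 to -0.013 on the other combined arrays. Without that array the list had 1 higher and 3 lower members and a median change of -0.065 in place of 0.041. MHC class I presentation gave 1 lower of 14, the immunoproteasome subunit PSMB9 (NM_002800), with a change of -0.48.

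Markers of fibroblasts had the highest median change of all lists, 0.85 over 9 tested transcripts, with 4 higher and 0 lower at an unadjusted p under 0.05. COL1A1 (NM_000088), a chain of type I collagen, was at 0.70, 0.35, 1.81 and 0.87 in combined tumours and -2.58, 0.91, -2.13 and -1.42 in mitotane tumours, a log2 change of 2.24 (SE 0.69, adjusted p = 0.391), or 4.72-fold. COL1A2 (NM_000089), the other chain, was at 0.18, 0.053, 1.23 and 0.24 against -2.36, 0.83, -1.92 and -1.18, and PDGFRA (NM_006206), a receptor of connective tissue cells, at 0.77, -0.24, 0.95 and 0.43 against -1.62, 0.88, -2.10 and -0.59. In these 3 genes mitotane replicates 1, 3 and 4 lay below all combined arrays, while mitotane replicate 2 lay among them, and so the groups overlapped. Without mitotane replicate 2 the changes were 2.98 for COL1A1, 2.25 for COL1A2 and 1.92 for PDGFRA. PDGFRB (NM_002609), a pericyte and fibroblast receptor, was the fourth, with a change of 0.64. Its smallest change under the processing alternatives was 0.16.

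Mitotane replicate 2 was also the highest mitotane array in DCN (NM_001920) (decorin), at 0.04, 0.57, 1.24 and 0.59 against -1.37, 1.39, -1.12 and -0.22, and in THY1 (NM_006288), at 0.30, -0.18, 0.88 and 0.46 against -1.18, 0.70, -0.76 and -0.68, with changes of 0.94 and 0.85. In DCN it lay above all 4 combined arrays, and without it the DCN change was 1.51; without mitotane replicate 1 it was 0.59. COL5A1 (NM_000093), a minor collagen of the matrix list, was at 0.26, 0.073, 0.86 and 0.51 against -1.05, 0.36, -1.01 and -0.82, a log2 change of 1.06 (SE 0.32, adjusted p = 0.385). The COL5A1 change was 0.34 on 1 probe per identifier and 0.17 after normexp and quantile normalisation. In contrast 3 of the 9 changes of fibroblast markers were negative, the lowest at -0.18. They were those of both transcripts of FBLN1 (NM_001996 and NM_006486), a matrix protein, and of FAP (NM_004460), the fibroblast activation protein, at -0.025 (SE 0.13). The median over the fibroblast list ran from -0.082 to 0.88 on the combined arrays and from -1.18 to 0.70 on the mitotane arrays. Of its 12 transcripts on the array, 9 were well above background on all 7 arrays with a scanner file and 1 on none. The count of higher members was 1 without mitotane replicate 1, 5 without mitotane replicate 2 or combined replicate 2, and 2 without each of the others. The retinoid target HIC1 and the LXR target PLTP, described above, shared the high value on mitotane replicate 2, and any link with the fibroblast markers was not tested. Whether the marker signals come from mouse host cells or from the human tumour cells was not tested. Macrophage and leukocyte markers gave 1 higher of 8, CSF1R (NM_005211), the receptor for macrophage growth factor, at -0.098, 0.21, 0.084 and 0.59 against -0.57, -0.43, -0.089 and -0.23, a log2 change of 0.53 (SE 0.17, adjusted p = 0.399). Endothelial markers gave 0 of 6, with list medians of -0.20 to 0.52 on combined and -0.21 to 0.18 on mitotane arrays, and 3 of their 10 transcripts on the array were above background on none of the 7.

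**Figure D5:**
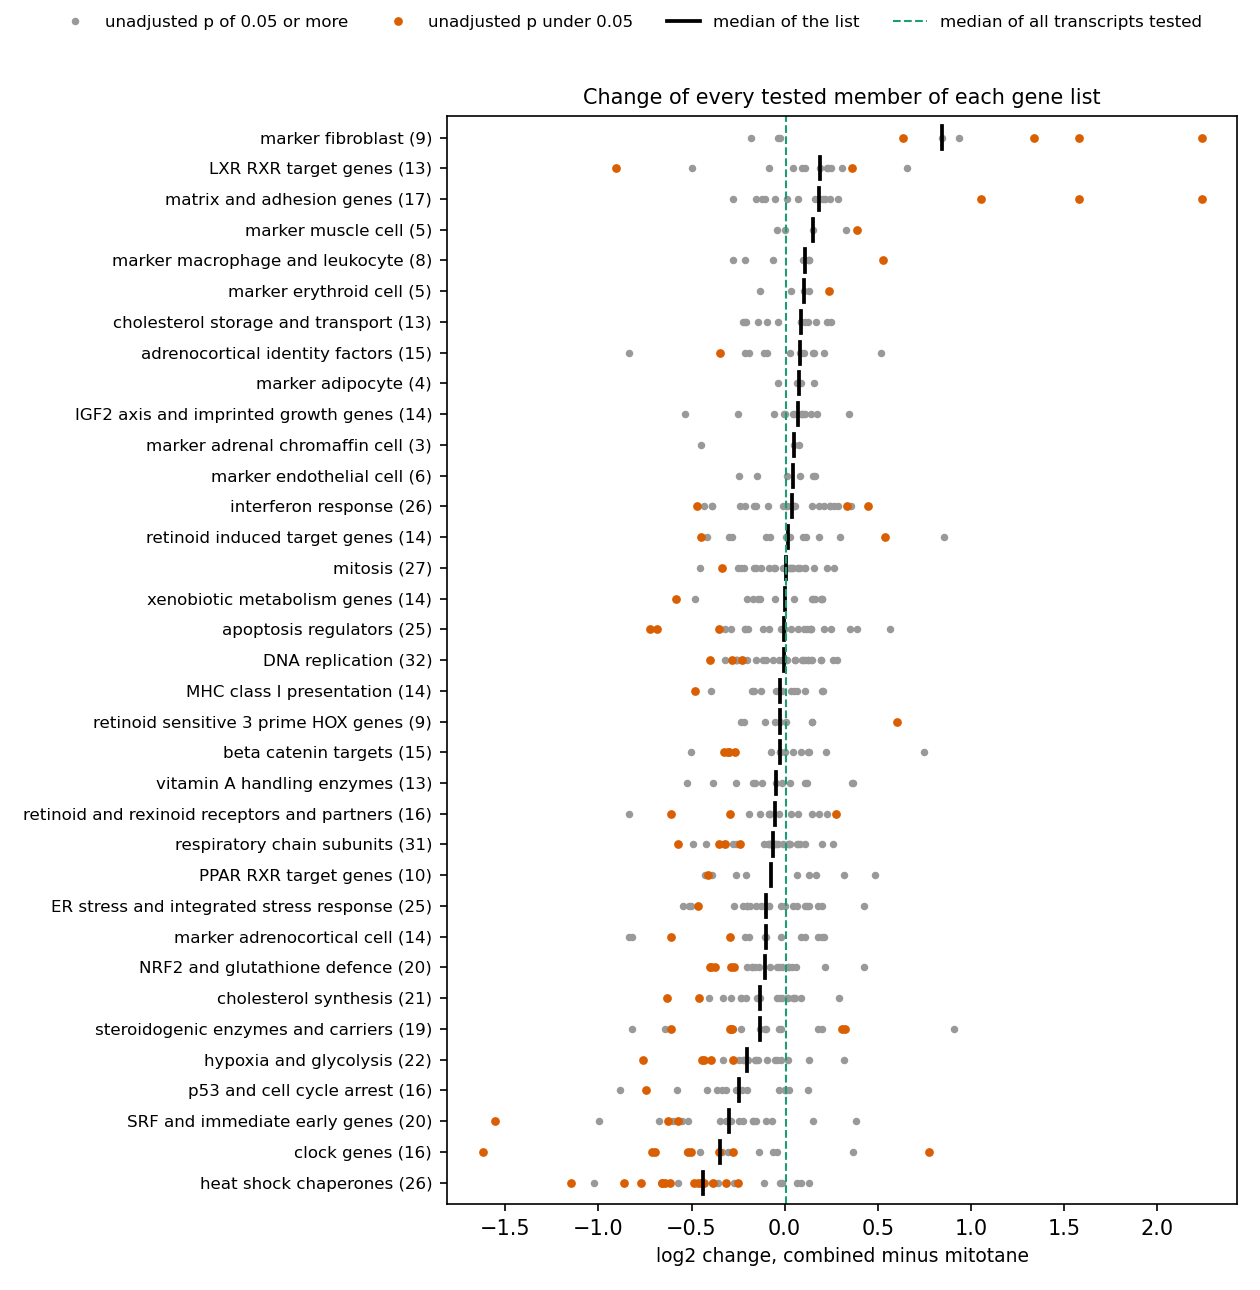
Difference of group means (x axis, log2, combined minus mitotane) for every tested transcript of each gene list (rows, number tested in brackets), with an unadjusted p under 0.05 in orange, the list's median as a black line and the median of all transcripts tested, 0.0058, as a dashed line. No point passed the adjusted threshold. Fibroblast markers lie furthest to the right by median (0.85), and heat shock chaperones (-0.44) and clock genes (-0.35) furthest to the left. The heat shock list was drawn up after values were seen, so its place follows in part from that choice.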

How the data were processed

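The authors deposited a table of log2 values made by steps not given in the sources used here. For the 7 arrays with a scanner file, differences between arrays in the table and in those files had r = 1.00 after rounding over 19386 probes, as for log2 signal scaled to a 75th percentile, and each probe's median over 16 arrays was 0. The deposited scanner files give each spot's intensity from Agilent Feature Extraction (11.0.1 per the submitters' processing notes, 11.0.1.1 per the file headers). Combined replicate 3 was read from the value table alone.

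A probe was kept when it was well above background on every array with a scanner file of at least 1 group (23569 probes), and probes were averaged per identifier, which left 20035 of 29094 identifiers (68.9%). A kept probe that was dim on any of these arrays entered through the other group alone, so its difference is not independent of the filter. limma 3.58.1 (lmFit, eBayes; R 4.3.3) was fitted to the 8 arrays, n = 4 per group, with two-sided p-values adjusted by Benjamini-Hochberg over all transcripts and held to 0.05. The fit was tested on simulated data. The number of arrays limits the precision: the median standard error of a log2 change was 0.15.

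No table with these data pairs the human identifiers with symbols. The plan for that case was to print at most 2 identifiers per direction; it was departed from, and 767 identifiers were paired with symbols from general knowledge, of which 557 were tested. A wrong pairing would attach a value to the wrong gene. The named genes are the 12 above and 12 below with the smallest p without overlap and with a sure symbol, up to 3 members of each list by p, and a set of retinoid, steroid and growth genes; 2 of these transcripts enter the counts but are not reported here. The members and lists were chosen with earlier results of these data known, and the heat shock list, CYP19A1 and KCNJ5 after their values were seen. Alternatives covered the filter, the choice of probe, the slide as a block, the scanner values, normexp (on the median signal, with an offset of 50), other scalings, array weights and each array left out.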

Additional observations from a re-analysis of the deposited data

Results flagged for a closer look

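Within a group, an array was singled out for a gene when its gap to the nearest of the other 3 arrays took up most of the group's range (Dixon's test at its 95% critical value). Of 258 sets of 4 arrays examined, 17 were singled out, and chance gives about 1 in 20, or 12.9.

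Combined replicate 4 was singled out for 4 genes. PER2 was at 1.70 there against -0.71 to -0.42 on the other combined arrays, and BAG3 was at -0.61 against -0.18 to -0.12. CHMP4B was at -0.10 there against -0.30 to -0.27, and ABCA1 at -0.20 against 0.18 to 0.24. This is also the array with 58.0% of probes above background; whether that bears on these values was not tested.

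Mitotane replicate 4 had low values of 3 steroidogenic genes. CYP11B2 was at -0.94 against 0.81 to 1.07 on the other mitotane arrays, CYP21A2 at -0.71 against -0.0095 to 0.089, and STAR at -0.47 against 0.24 to 0.34. Mitotane replicate 2 was high for 2 genes of connective tissue, COL5A1 at 0.36 against -1.05 to -0.82 and FAP at 0.23 against -0.0073 to 0.015. Mitotane replicate 1 was high for PER3, at 0.64 against 0.45 to 0.47, and for CYP19A1, at 0.68 against -0.023 to 0.072, and low for RARG, at -0.29 against -0.024 to 0.024. Mitotane replicate 3 was low for CCNB1, at -0.42 against 0.0084 to 0.092.

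Among the other combined arrays, replicate 1 was low for SRD5A1, at -0.35 against -0.071 to -0.036, and for SREBF1, at -0.19 against 0.27 to 0.35. Combined replicate 2 was high for MRAP (NM_178817), at 0.45 against 0.15 to 0.19, and combined replicate 3 for COL1A2, at 1.23 against 0.053 to 0.24.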

How the results depend on the processing

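Under all 16 alternatives 0 transcripts had an adjusted p under 0.05 in limma; the lowest adjusted p was 0.127, without combined replicate 4. The count at an unadjusted p under 0.05 was 1449 to 2090 with 1 array left out and 1506 to 2885 under the other alternatives. Members of the gene lists, the heat shock list left out, numbered 69 at that level. They numbered 45 with no filter on dim probes, and 41 (without mitotane replicate 1) to 71 with 1 array left out. These counts are given without a share, so they cannot be set beside the 10.2% of all transcripts. The cause of these differences was not tested. All 24 chosen transcripts kept an unadjusted p under 0.05 except 1 with no filter and 2 with normexp and quantile normalisation. They had been chosen for small p and groups without overlap on these same arrays. Their staying under 0.05 therefore follows largely from that choice and is no test of their stability. With the slide as a replicate block the count was 1506 (746 higher, 760 lower), that of list members 59, and no adjusted call was gained. The slide is no known pairing: deviations of the 2 arrays on a slide correlated at -0.26 to 0.33.

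Of 2016 recomputed changes of 126 named transcripts, 43 turned sign, mostly of genes with a change near 0. With scanner values scaled to the 75th percentile the change was 0.017 for CLOCK, 0.019 for HSPA9, -0.0062 for RARRES3 and -0.042 for RXRB. With normexp and quantile normalisation it was 0.0056 for CLOCK, -0.029 for IGF2, -0.019 for RXRB and 0.025 for SOAT1. After quantile normalisation it was 0.0027 for CYP17A1, -0.0026 for IGF2 and -0.020 for RXRB. With array weights it was 0.046 for CLOCK, 0.055 for CYP11B2, 0.033 for CYP17A1, -0.026 for IGF2 and -0.10 for RXRB. HK2 was at 0.033 with no filter, where its dim probes were averaged in, and TRIM46 at 0.29. On 1 probe per identifier GATA4 was at -0.18 and NCOR1 at -0.18, and with array weights NCOA2 was at -0.39 and SC4MOL at -0.37.

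With 1 array left out, the change ran from -0.14 to 0.037 for CLOCK, -0.0053 to 0.23 for CRABP2, -0.11 to 0.038 for CYP17A1, -0.0036 to 0.33 for CYP21A2, -0.29 to 0.077 for CYP26B1, -0.10 to 0.047 for FAP, -0.043 to 0.033 for HSPA9 and -0.070 to 0.011 for HSPD1. It ran from -0.032 to 0.15 for IGF2, -0.058 to 0.23 for MRAP (NM_206898), -0.016 to 0.30 for RARRES3, -0.053 to 0.19 for RXRB and -0.073 to 0.021 for SOAT1. Without mitotane replicate 4 the change was 0.14 for NR1D1, 0.31 for MRAP (NM_178817) and -0.55 for TGM2 (NM_198951), which was at -0.12 without mitotane replicate 3. Signal over background limits genes that were dim on combined arrays, such as CITED1 and WNT7A.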

Other observations

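Further lists were examined that the comparison above does not describe. Matrix and adhesion genes gave 3 higher and 0 lower of 17 at an unadjusted p under 0.05, namely COL1A1, COL1A2 and COL5A1, which are also the members with the 3 highest changes, and a median change of 0.18. Xenobiotic metabolism genes gave 1 lower of 14, with a median of 0.0012. Markers of muscle cells gave 1 higher of 5, markers of erythroid cells 1 higher of 5, markers of adipocytes 0 of 4 and markers of chromaffin cells 0 of 3. Of 8 adipocyte transcripts on the array 2 were above background on none of the 7 arrays with a scanner file, as were 2 of 8 erythroid and 1 of 9 muscle transcripts.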
